A study of Mus musculus with 13 samples.

Results

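The Slc25 genes encode the mitochondrial carrier family, the proteins that move ATP, phosphate, organic acids, amino acids, cofactors and iron across the inner mitochondrial membrane. Members were all genes with a single symbol beginning with Slc25a, each read by 1 probe set, and they came to 46 of the 22180 genes with 1 symbol on the array. Carriers of this family share a fold of repeated membrane-spanning pairs and mostly work as exchangers, letting 1 solute out for another taken in. In the proximal tubule, a segment that reclaims solutes at high energy cost and depends on oxidative phosphorylation, the ADP/ATP and phosphate carriers supply ATP synthase and export its product. Other carriers feed gluconeogenesis, ammonia formation and fatty acid oxidation, which are known activities of this segment.

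Expression was measured with Affymetrix whole-transcript arrays in S1 segments, the first stretch of the proximal tubule, from kidneys of male C57BL/6J mice. The LPS/LPS group (5 arrays) was given 0.25 mg/kg of lipopolysaccharide (LPS), the endotoxin of Gram-negative bacteria, and 5 mg/kg 24 h later, a schedule known as endotoxin preconditioning. It was studied 24 h after the 5 mg/kg dose. The LPS group (4 arrays) had the 5 mg/kg dose alone, by intraperitoneal injection, and was studied at 24 h. The control group (4 arrays) had saline. The labels also give these doses as 5 and 100 ug of LPS. No group carried an engineered allele in the labels. Nothing in the labels says that the arrays come from different animals, and p-values here reflect no more than the spread among these arrays, which may be technical. Each value is a log2 level from RMA, the deposited summary of the probes of a probe set, and levels of different genes are not ranked against each other. A difference of 1 on this scale is a 2-fold difference, and p-values are from limma over all 13 arrays, adjusted by Benjamini-Hochberg over all 22180 genes.

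The label of S1 held for some markers and not for others. Of 17 markers of S1 and S2, 10 had a mean above a background reference, the log2 level of 4.77 under which 95% of 1105 olfactory receptor genes lay. Slc34a1, the phosphate cotransporter of the proximal brush border, averaged 10.1, whereas Slc5a2, the glucose cotransporter that defines the early segment, averaged 4.27, under the reference. None of the 9 macrophage, 6 neutrophil and 4 podocyte markers had a mean above it. By contrast, 1 of 6 endothelial markers (Egfl7, 5.26) and 1 of 5 lymphocyte markers (Nkg7, 5.15) did. So did 2 of 5 fibroblast and mural markers (Acta2, 5.45, and Col3a1, 4.88). Among 7 markers of S3, the last stretch of the proximal tubule, 3 did: Atp11a (5.41), Slc22a13 (5.18) and Slc6a18 (4.80). Among 10 markers of nephron segments further down, 1 did (Umod, 5.17). The mean of the 6 endothelial markers was 4.12 to 4.32 on LPS/LPS arrays, 4.11 to 4.41 on LPS arrays and 3.85 to 4.05 on control arrays, so that both treated groups lay above control without overlap. Its part in the carriers' differences was not tested. The mean of the 17 markers of S1 and S2 lay between 4.56 and 5.18 on the LPS/LPS arrays, between 4.71 and 6.06 on the LPS arrays, and between 5.13 and 5.94 on the control arrays. LPS replicate 3 stood apart: Umod, the uromodulin gene of the thick ascending limb, read 8.36 there, and between 4.28 and 6.77 on the other arrays, with the highest of these on control replicate 1. LPS replicate 3 and control replicate 1 also held the highest means of the S1 and S2 markers (6.06 and 5.94). For some carriers the difference without 1 of these arrays is given too, and other differences may also depend on them. Arrays also differed in the spread of their log2 values (SD 1.28 to 1.42), and 7 wide arrays (2 LPS/LPS, 3 LPS and 2 control) were separated from 6 narrow ones (3 LPS/LPS, 1 LPS and 2 control) at 1.35. In such bulk samples, fewer cells of a type and less RNA per cell cannot be told apart.

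No member passed the adjusted threshold of 0.05 in any comparison, so none is called changed, and what follows are measured levels and differences. Averaged over all arrays, 6 members (13%) exceeded the background reference, against 9.95% of all genes: Slc25a1, Slc25a3, Slc25a28, Slc25a38, Slc25a39 and Slc25a48. For LPS against control 0 members were called with limma's adjusted p, where 0% of all genes were. Without adjustment, 5 members (10.9%) had p under 0.05, against 6.43% of all genes, and all 5 were higher in LPS, against 3.49% of all genes higher and 2.95% lower. They were Slc25a22, Slc25a21, Slc25a30, Slc25a23 and Slc25a16. For LPS/LPS against control 0 members were called, where 0.00902% of all genes were, and 3 (6.52%) had an unadjusted p under 0.05, against 4.7% of all genes. All 3, Slc25a39, Slc25a3 and Slc25a4, were lower in LPS/LPS, against 2.07% of all genes lower and 2.62% higher. For LPS/LPS against LPS 0 members were called, where 0.0631% of all genes were. Here 9 members (19.6%) had an unadjusted p under 0.05, against 8.61% of all genes, and all 9 were lower in LPS/LPS, against 4.49% of all genes lower and 4.13% higher. These were Slc25a22, Slc25a39, Slc25a3, Slc25a30, Slc25a42, Slc25a15, Slc25a13, Slc25a1 and Slc25a23. The comparisons share samples, so a member with high LPS levels appears both as higher against control and as higher than LPS/LPS.

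**Figure D1:**
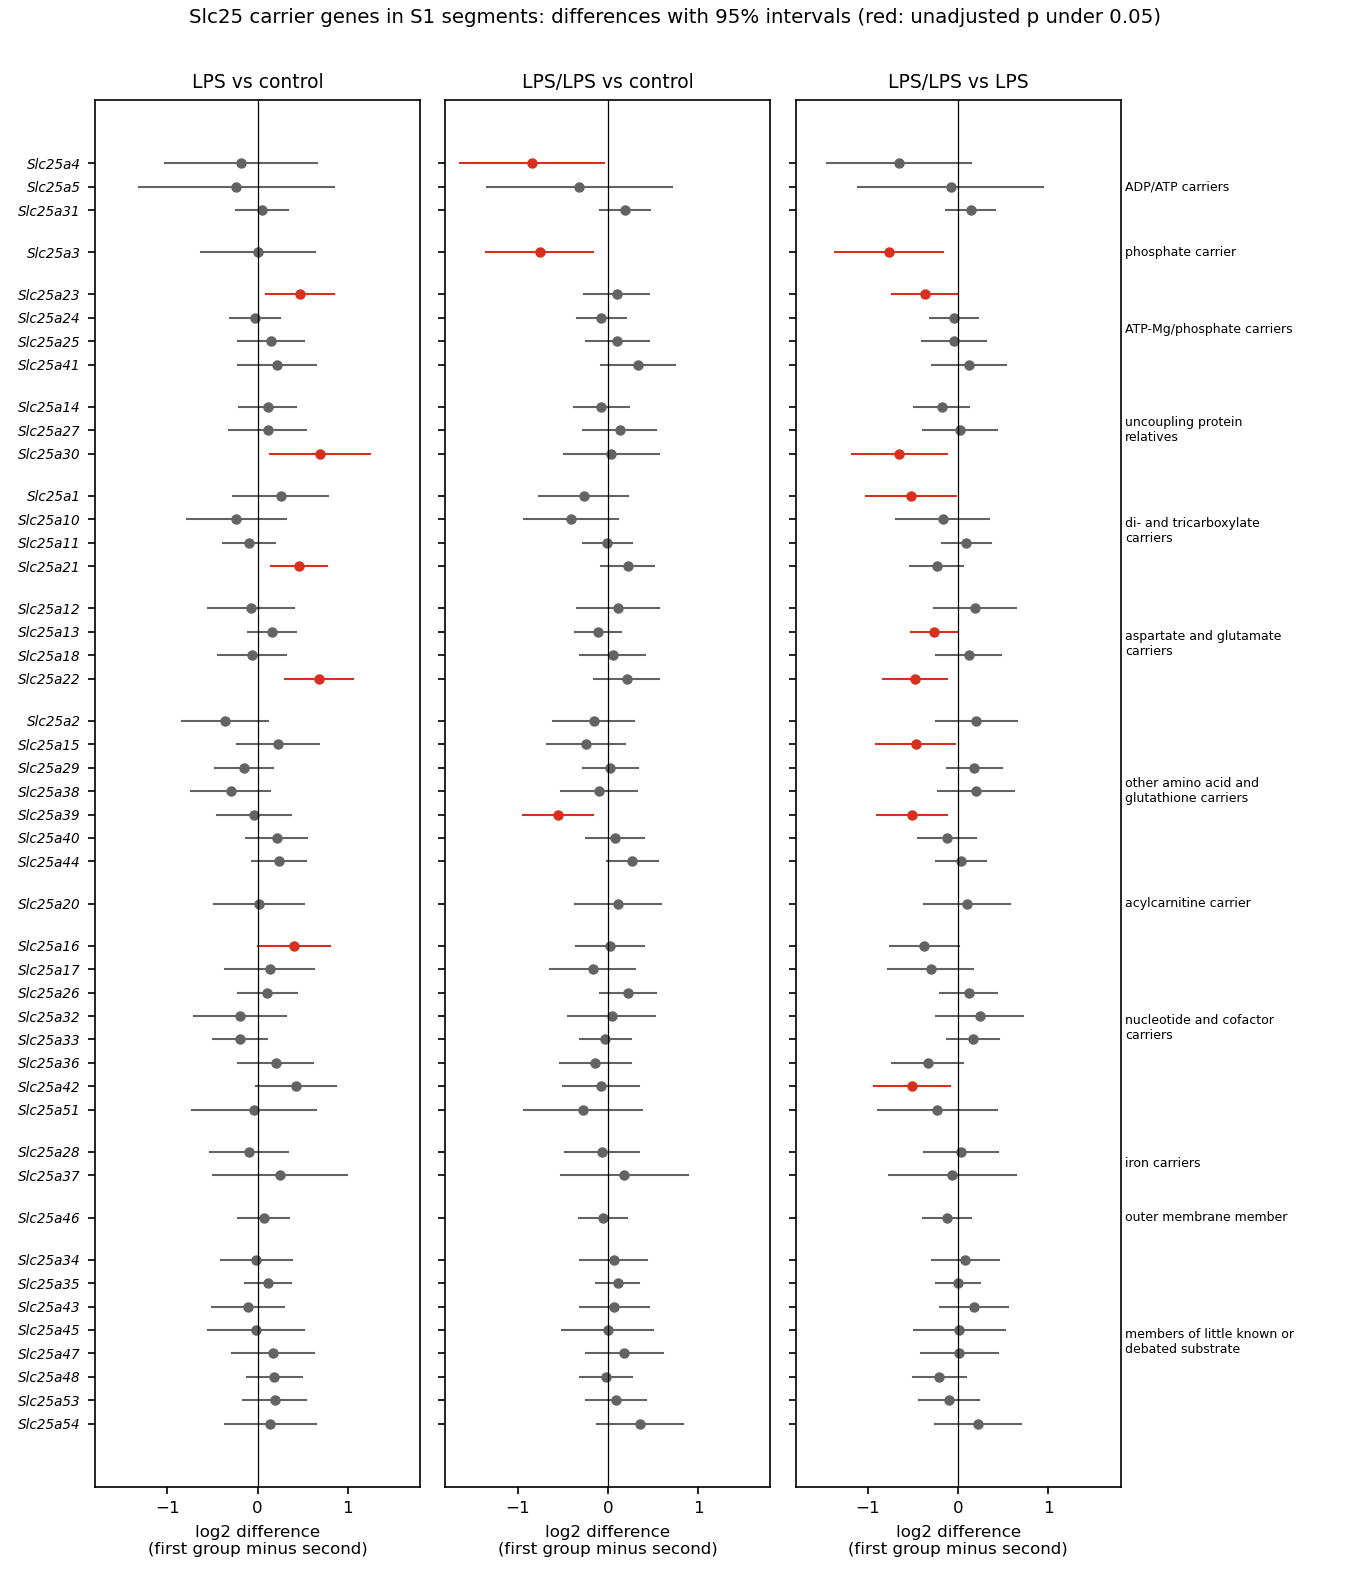
Log2 difference of each of the 46 Slc25 genes (points) with its 95% interval from limma (lines), by role and comparison, the first group minus the second. Red marks an unadjusted p under 0.05: all 5 red genes lie above 0 for LPS against control, and all 3 and all 9 lie below 0 for LPS/LPS against control and against LPS.

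The median over the family differed little between groups. The median member differed by 0.11 between LPS and control, with 28 members higher and 18 lower, against a median of -0.02 over all genes, of which 47.1% were higher and 52.9% lower. Between LPS/LPS and control it differed by 0.03, with 24 members higher and 22 lower, against 0.03 over all genes, of which 55.8% were higher and 44.2% lower. Between LPS/LPS and LPS it differed by -0.05, with 20 members higher and 26 lower, against 0.05 over all genes, of which 59.3% were higher and 40.7% lower. A difference over 0.5 in size was found for 2 members (4.35%) between LPS and control, 3 (6.52%) between LPS/LPS and control and 6 (13%) between LPS/LPS and LPS, against 6.58%, 4.36% and 7.01% of all genes in these comparisons. The median level of the 46 members on an array averaged 3.88 ± 0.09 in LPS/LPS (SD, n = 5), 3.99 ± 0.056 in LPS (SD, n = 4) and 3.86 ± 0.079 in control (SD, n = 4). The ranges over arrays overlapped between all groups, at 3.79 to 4.01 in LPS/LPS, 3.94 to 4.06 in LPS and 3.79 to 3.97 in control. The members' spread within groups was also like that of other genes, with a median residual SD of 0.277 both for members and for all genes. Slc25a5 was the most variable member (residual SD 0.83, at the percentile 97.6 of all genes), followed by Slc25a4 (0.635) and Slc25a37 (0.557).

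The members lower in LPS/LPS than in control at an unadjusted p under 0.05 were the phosphate carrier Slc25a3, the ADP/ATP carrier Slc25a4 and the glutathione carrier Slc25a39. Their promoters are shown because these 3 genes carry that comparison. They are 300 bases each from RefSeq on GRCm38.p6, 250 before and 50 after the annotated start, all on the minus strand and printed 5′ to 3′ as transcribed. Capitals mark motifs searched on both strands: that of NRF1, a regulator of mitochondrial genes (GCGC, any base, then TGCGC), and that of the ETS family (CCGGAAG).
Slc25a3, chr10:91123918-91124217: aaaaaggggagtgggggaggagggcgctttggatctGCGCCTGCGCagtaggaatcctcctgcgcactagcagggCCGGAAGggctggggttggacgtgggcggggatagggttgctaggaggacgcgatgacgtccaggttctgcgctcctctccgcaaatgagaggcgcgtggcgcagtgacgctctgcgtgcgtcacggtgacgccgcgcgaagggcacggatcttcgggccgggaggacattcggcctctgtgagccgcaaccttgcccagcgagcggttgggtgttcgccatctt
Slc25a4, chr8:46211013-46211312: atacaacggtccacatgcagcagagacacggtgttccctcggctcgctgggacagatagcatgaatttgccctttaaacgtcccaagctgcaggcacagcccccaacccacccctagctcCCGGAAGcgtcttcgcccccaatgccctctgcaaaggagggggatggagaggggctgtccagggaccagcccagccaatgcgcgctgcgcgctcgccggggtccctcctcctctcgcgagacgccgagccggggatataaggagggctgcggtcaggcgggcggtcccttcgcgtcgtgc
Slc25a39, chr11:102407468-102407767: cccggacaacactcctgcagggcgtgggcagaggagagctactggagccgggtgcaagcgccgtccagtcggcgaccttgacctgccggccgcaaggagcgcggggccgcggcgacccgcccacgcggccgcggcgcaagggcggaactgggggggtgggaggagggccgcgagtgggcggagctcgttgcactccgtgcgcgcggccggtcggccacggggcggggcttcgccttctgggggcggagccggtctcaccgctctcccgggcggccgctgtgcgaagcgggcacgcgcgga
The Slc25a3 window holds an NRF1 match that starts at -214 and an ETS match that starts at -175. The Slc25a4 window holds an ETS match that starts at -130, and the Slc25a39 window holds neither. Of the 36 members with a promoter in the table, 2 held the NRF1 motif (Slc25a3 and Slc25a31), against 4.6% of 32851 promoters, and 7 held CCGGAAG (19.4%), against 8.86%. Members were searched at 1 start each, the farthest upstream, though 7 had several. The shares of all promoters count every start, so the comparison is not like for like. Of the other motifs searched, AAGGTCA, bound by oestrogen-related receptors, was in 1 member (Slc25a34; 4.72% of all promoters). The interferon response motif (TTTC, any 2 bases, then TTTC) was in Slc25a15 alone (3.44% of all promoters), and the NF-kB motif (GGGA, any base, then TTTCC) was in 0 members (0.411% of all promoters). The motifs were chosen with these matches known, and a match is a description of letters only. GC content was 65.7% in the Slc25a3 and Slc25a4 windows and 77.3% in that of Slc25a39.

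Slc25a3, the carrier that brings phosphate into the matrix for ATP synthase, was lower in LPS/LPS than in either other group. Its levels were 4.88, 4.72, 5.12, 5.31 and 4.47 on the LPS/LPS arrays, 5.53, 5.58, 6.57 and 4.97 on the LPS arrays, and 5.52, 5.68, 6.14 and 5.29 on the control arrays. The highest LPS/LPS array lay just above the lowest control array, so the groups touched. LPS/LPS averaged 4.90 ± 0.33 (SD, n = 5) and control 5.66 ± 0.36 (SD, n = 4), a log2 difference of -0.76 (SE 0.28, unadjusted p = 0.0167, limma adjusted p = 0.987). Among wide arrays it was -0.73, and among narrow ones -0.86. Without control replicate 3 it was -0.60, with an unadjusted p of 0.0641. Against LPS, which averaged 5.66 ± 0.67 (SD, n = 4), the difference was -0.76 (SE 0.28, unadjusted p = 0.0161, limma adjusted p = 0.461). Without LPS replicate 3, whose level was the highest of all 13 arrays, this difference was -0.46, with an unadjusted p of 0.0693. Slc25a3 differed between LPS and control by 0.01 (95% interval -0.63 to 0.64), an interval that leaves room for a sizeable change in either direction.

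Slc25a4 encodes the ADP/ATP carrier that prevails in heart and muscle and exchanges matrix ATP for cytosolic ADP. Its levels were 3.68, 3.16, 3.11, 3.74 and 3.30 on the LPS/LPS arrays, 3.06, 4.00, 5.50 and 3.66 on the LPS arrays, and 4.61, 4.03, 3.81 and 4.50 on the control arrays. Every LPS/LPS array lay below every control array, while the LPS arrays ran across both groups. Its levels stayed under the background reference on every LPS/LPS and control array. Groups that did not overlap between LPS/LPS and control were found for 2 members (4.35%), this gene and Slc25a39, against 1.54% of all genes. LPS/LPS averaged 3.40 ± 0.30 (SD, n = 5) and control 4.24 ± 0.38 (SD, n = 4), a difference of -0.84 (SE 0.37, unadjusted p = 0.04, limma adjusted p = 0.987). Among wide arrays it was -1.07, and among narrow ones -0.58. The unadjusted p lay between 0.0641 and 0.105 when control replicate 1 or 4 or LPS/LPS replicate 2, 3 or 5 was left out, and it was 0.00274 without LPS replicate 3. Against LPS the difference was -0.66 (unadjusted p = 0.0992), and -0.17 without LPS replicate 3 (unadjusted p = 0.497). LPS against control gave -0.18 (unadjusted p = 0.644), and -0.67 without LPS replicate 3 (unadjusted p = 0.0234), so that this 1 array moved both.

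The other ADP/ATP carriers did not pass. Slc25a5, the form found in most dividing and epithelial cells, read 4.75, 5.32, 4.28, 4.03 and 4.51 on the LPS/LPS arrays, 4.26, 4.51, 5.83 and 4.03 on the LPS arrays, and 6.58, 4.19, 4.17 and 4.64 on the control arrays. Control replicate 1 and LPS replicate 3, the arrays with the most Umod, held the highest values, and the groups overlapped. The same arrays had the highest means of the S1 and S2 markers, 5.94 and 6.06. The part of either set of markers in these values was not tested. The difference between LPS/LPS and control was -0.32 (95% interval -1.34 to 0.71), or 0.24 without control replicate 1. LPS differed from control by -0.24 (95% interval -1.32 to 0.84), and by 0.32 without control replicate 1. LPS/LPS differed from LPS by -0.08 (95% interval -1.11 to 0.94), and by 0.31 without LPS replicate 3. The intervals reach far to both sides of 0, and no direction is read from them. Slc25a31, the testis form, averaged 3.39 in LPS/LPS, 3.25 in LPS and 3.20 in control.

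**Figure D2:**
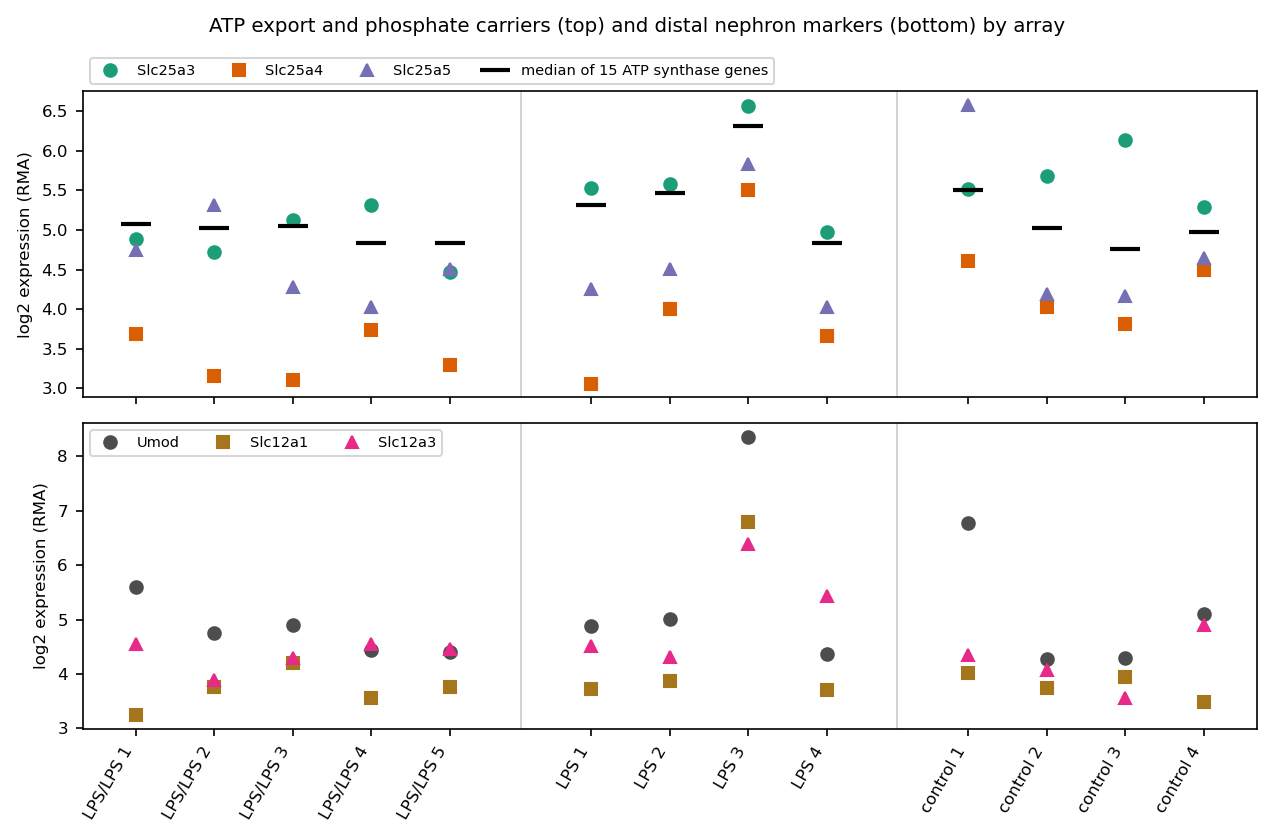
Log2 levels on each of the 13 arrays: above, Slc25a3, Slc25a4, Slc25a5 and the median of 15 ATP synthase genes, and below, the distal nephron markers Umod, Slc12a1 and Slc12a3. LPS replicate 3 holds the highest Slc25a3, Slc25a4, ATP synthase median and Umod, and control replicate 1 the highest Slc25a5. Heights of different genes are not comparable.

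The ATP synthase genes, the partners of these carriers, were read beside them. Of 15 measured, 0 were higher and 3 lower in LPS/LPS than in control at an unadjusted p under 0.05. Over all genes 2.62% were higher and 2.07% lower. The median difference of the 15 was -0.43. Atpif1, the inhibitor of ATP synthase running in reverse, differed by -1.33 (unadjusted p = 0.00182), Atp5b, the catalytic beta subunit, by -1.21 (unadjusted p = 0.0184) and Atp5l, a membrane subunit, by -1.82 (unadjusted p = 0.0298). Against LPS 4 were lower and 0 higher, where 4.49% of all genes were lower and 4.13% higher. The 4 were Atp5b (-1.23), Atp5a1 (-0.85), Atpif1 (-0.88) and Atp5e (-1.06). Without LPS replicate 3 these differences were -0.70 for Atp5b, -0.38 for Atp5a1, -0.53 for Atpif1 and -0.57 for Atp5e. The median difference of the 15 was -0.34, or -0.15 without that replicate. Between LPS and control 0 of the 15 had an unadjusted p under 0.05, against 6.43% of all genes. The median difference was 0.01, or -0.32 without LPS replicate 3. The median of the 15 genes was 6.31 on that replicate, against 4.83 to 5.47 on the other LPS arrays, 4.83 to 5.07 on LPS/LPS arrays and 4.76 to 5.51 on control arrays. None of the 15 passed limma's adjusted threshold (lowest adjusted p 0.468). The mean of the S1 and S2 markers, given above, was also lower on 4 of the 5 LPS/LPS arrays than on any control array, and Slc34a1 lay at 8.31 to 10.06 in LPS/LPS, 9.48 to 10.91 in LPS and 11.00 to 11.54 in control. The part of this shift in the carriers' lower levels was not tested.

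Slc25a39 imports glutathione into mitochondria. Of the 3 members lower in LPS/LPS than in control, its difference alone kept an unadjusted p under 0.05 whichever array was left out. The 3 were picked for that difference on these same arrays, so refits on subsets of them support nothing and only describe Slc25a39. Its levels were 4.54, 4.50, 4.41, 4.48 and 4.42 on the LPS/LPS arrays, 4.50, 5.10, 4.72 and 5.59 on the LPS arrays, and 5.17, 5.12, 4.87 and 4.94 on the control arrays. The LPS/LPS arrays lay close together and all below control, and the LPS arrays were spread over both. Every LPS/LPS array of this gene lay under the background reference, and every control array above it. LPS/LPS averaged 4.47 ± 0.052 (SD, n = 5) and control 5.03 ± 0.14 (SD, n = 4), a difference of -0.55 (SE 0.18, unadjusted p = 0.00852, limma adjusted p = 0.987). In the 9 fits that left out 1 array of these groups the difference lay between -0.61 and -0.51, and it was -0.57 within wide arrays and -0.53 within narrow ones. Against LPS, at 4.98 ± 0.48 (SD, n = 4), the difference was -0.51 (SE 0.18, unadjusted p = 0.0139, limma adjusted p = 0.45). Here LPS replicate 4 mattered: without it the difference was -0.31 (unadjusted p = 0.0564), and within narrow arrays, which hold a single LPS array, it was -0.04. The paralogue Slc25a40, also a glutathione carrier, averaged 2.64 ± 0.24 in LPS/LPS, 2.77 ± 0.23 in LPS and 2.56 ± 0.11 in control.

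**Figure D3:**
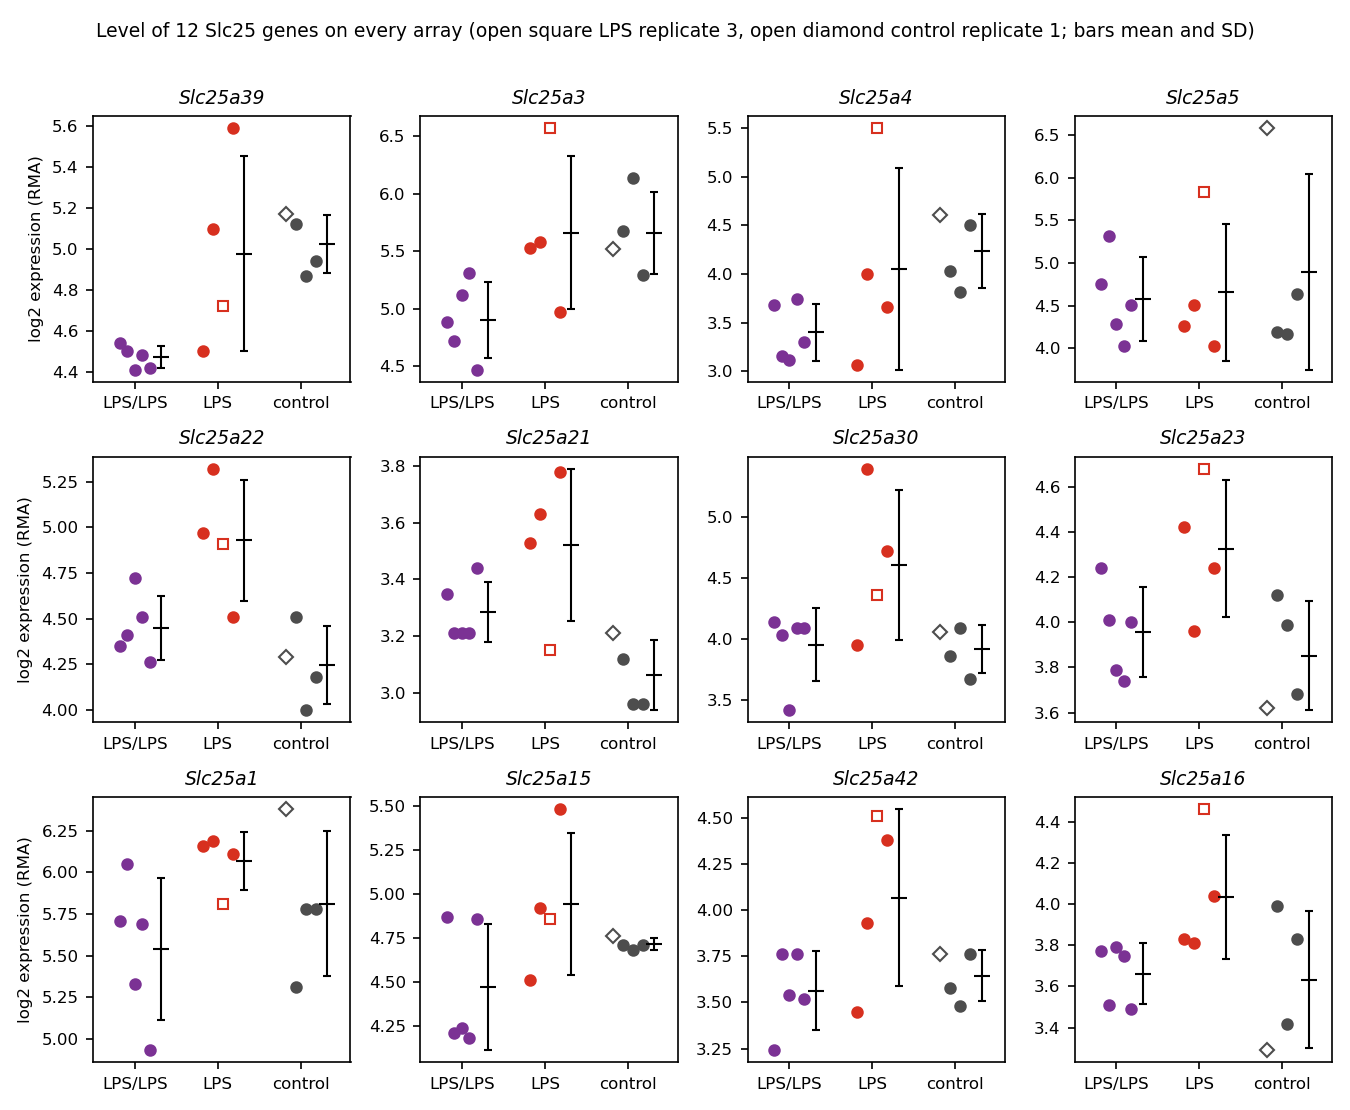
Log2 level of 12 Slc25 genes on every array (points), with the group mean and SD beside them, LPS/LPS, LPS and control left to right. LPS/LPS lies below control for Slc25a39 and Slc25a4 without overlap, and for Slc25a22 only 1 control array reaches the lowest LPS array. Open squares mark LPS replicate 3 and open diamonds control replicate 1.

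Glutamate and aspartate carriers link the mitochondrion to amino acid breakdown and to the malate-aspartate shuttle. Slc25a22, which takes glutamate into the matrix with a proton, had the lowest p of the family for LPS against control. Its levels were 4.97, 5.32, 4.91 and 4.51 on the LPS arrays and 4.29, 4.51, 4.00 and 4.18 on the control arrays, so that a single control array matched the lowest LPS array. That value, 4.51, was the same to all deposited digits on 3 arrays. LPS averaged 4.93 ± 0.33 (SD, n = 4) and control 4.24 ± 0.21 (SD, n = 4), a difference of 0.68 (SE 0.18, unadjusted p = 0.00162, limma adjusted p = 0.422). It lay between 0.55 and 0.83 when any 1 array of these groups was left out, and was 0.68 within wide and 0.71 within narrow arrays. The gene was picked on these same arrays, so such refits are a description and no support. The LPS/LPS arrays read 4.35, 4.41, 4.72, 4.51 and 4.26, of which all but the highest lay within or at the edge of the control range. Every LPS/LPS and control array of Slc25a22 lay under the background reference. LPS/LPS, at 4.45 ± 0.18 (SD, n = 5), differed from LPS by -0.48 (SE 0.17, unadjusted p = 0.0128, limma adjusted p = 0.449), or by -0.34 without LPS replicate 2 (unadjusted p = 0.058). It differed from control by 0.21 (95% interval -0.15 to 0.57).

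Slc25a13, the aspartate-glutamate carrier known as citrin, is regulated by calcium. It read 2.92, 2.87, 3.11, 3.11 and 3.22 on the LPS/LPS arrays, 3.11, 3.36, 3.37 and 3.41 on the LPS arrays, and 3.26, 3.10, 3.13 and 3.13 on the control arrays. The whole range over 13 arrays was 0.55, at levels under the background reference, and neighbouring groups overlapped. LPS/LPS differed from LPS by -0.27 (SE 0.12, unadjusted p = 0.0385, limma adjusted p = 0.545), with p between 0.0797 and 0.091 without LPS replicate 2, 3 or 4 or LPS/LPS replicate 1 or 2. Slc25a12, the other calcium-regulated form, averaged 3.83 ± 0.37 in LPS/LPS, 3.64 ± 0.42 in LPS and 3.71 ± 0.14 in control. Slc25a18, a second glutamate carrier, averaged 4.37 ± 0.21 in LPS/LPS, 4.25 ± 0.29 in LPS and 4.32 ± 0.24 in control, and neither had an unadjusted p under 0.05.

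The enzymes that work on the carried metabolites were read as a list of 15. Against control, 6 were higher and 0 lower in LPS at an unadjusted p under 0.05, where 3.49% of all genes were higher and 2.95% lower. Of the 15, 0 passed the adjusted threshold, and the median difference was 0.41. The median was 0.06 without LPS replicate 3, 0.39 within wide arrays and 0.02 within narrow ones. Got1, the cytosolic aspartate aminotransferase of the same shuttle, read 4.80, 5.09, 4.94 and 5.66 in LPS and 4.39, 4.13, 4.01 and 4.30 in control, a difference of 0.92 (unadjusted p = 0.000326, limma adjusted p = 0.186). Every LPS array lay above every control array for this gene. Pck1, the first enzyme committed to gluconeogenesis, differed by 1.25 (unadjusted p = 0.00574), Cpt1a, which starts fatty acid entry, by 1.01 (unadjusted p = 0.0152) and Glud1, glutamate dehydrogenase, by 0.90 (unadjusted p = 0.0207). Without LPS replicate 3 the difference was 0.63 for Cpt1a, and within narrow arrays that of Glud1 turned to -0.31. In LPS/LPS against LPS, 7 of the 15 were lower and 1 higher, where 4.49% of all genes were lower and 4.13% higher. The median difference of the 15 was -0.43. The median was -0.37 without LPS replicate 3, -0.57 within wide arrays and 0.01 within narrow ones, which hold a single LPS array. The lowest p values were those of Got1 (-0.74), Cpt1a (-1.18), Mdh2 (-0.62) and Got2 (-0.43), the last 2 being mitochondrial enzymes of the shuttle. Against control, LPS/LPS had 1 lower (Mdh2, -0.52) and 0 higher, where 2.07% of all genes were lower and 2.62% higher.

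Di- and tricarboxylate carriers exchange intermediates of the citric acid cycle. Slc25a21, which moves oxoadipate and oxoglutarate, read 3.53, 3.63, 3.15 and 3.78 on the LPS arrays and 3.21, 3.12, 2.96 and 2.96 on the control arrays. The LPS arrays other than replicate 3 lay above every control array. LPS averaged 3.52 ± 0.27 (SD, n = 4) and control 3.06 ± 0.12 (SD, n = 4), a difference of 0.46 (SE 0.14, unadjusted p = 0.00682, limma adjusted p = 0.576). It lay between 0.37 and 0.58 when 1 array of these groups was left out, and was 0.43 within wide and 0.49 within narrow arrays. This gene too was picked on these arrays, so the refits only describe it. The LPS/LPS arrays read 3.35, 3.21, 3.21, 3.21 and 3.44, a difference from LPS of -0.24 (unadjusted p = 0.105), or -0.36 without LPS replicate 3 (unadjusted p = 0.013). The value 3.21 was the same to all deposited digits on 4 arrays, control replicate 1 among them. Such repeats enter the spread behind the p-values of Slc25a21. All these levels were under the background reference.

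Slc25a1, which exports citrate for fatty acid and sterol synthesis, read 5.71, 6.05, 5.33, 5.69 and 4.93 on the LPS/LPS arrays, 6.16, 6.19, 5.81 and 6.11 on the LPS arrays, and 6.38, 5.31, 5.78 and 5.78 on the control arrays. LPS/LPS replicate 2 was the only array of its group within the range of the LPS arrays, and the others lay below it. LPS/LPS averaged 5.54 ± 0.43 (SD, n = 5) and LPS 6.07 ± 0.18 (SD, n = 4), a difference of -0.52 (SE 0.23, unadjusted p = 0.0396, limma adjusted p = 0.546). The unadjusted p lay between 0.0711 and 0.105 without LPS replicate 1, 2 or 4 or LPS/LPS replicate 3 or 5. The difference was -0.71 within wide and -0.47 within narrow arrays. The difference between LPS/LPS and control was -0.27 (unadjusted p = 0.263), or -0.08 without control replicate 1. It was -0.76 within wide arrays and 0.14 within narrow ones.

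Slc25a10, the dicarboxylate carrier that exchanges malate and succinate for phosphate, read 4.70, 4.16, 4.68, 4.21 and 5.21 in LPS/LPS, 4.14, 4.80, 4.96 and 5.14 in LPS, and 4.80, 4.80, 5.42 and 4.97 in control. The groups overlapped, with 4 of the 5 LPS/LPS arrays below every control array. LPS/LPS differed from control by -0.41 (95% interval -0.93 to 0.11), or by -0.56 without LPS/LPS replicate 5 (unadjusted p = 0.027). It was 0.07 within wide arrays and -0.76 within narrow ones, so the classes did not share a direction. Slc25a11, the oxoglutarate-malate carrier of the shuttle, averaged 4.75 ± 0.022 in LPS/LPS, 4.67 ± 0.21 in LPS and 4.76 ± 0.17 in control.

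The uncoupling protein relatives form a branch whose transport activity is less settled. Slc25a30 was first described as a kidney mitochondrial carrier. It read 4.14, 4.03, 3.42, 4.09 and 4.09 on the LPS/LPS arrays, 3.95, 5.39, 4.36 and 4.72 on the LPS arrays, and 4.06, 3.86, 4.09 and 3.67 on the control arrays. LPS replicates 2, 3 and 4 lay above all arrays of the other groups, and LPS replicate 1, the narrow one, did not. LPS averaged 4.61 ± 0.61 (SD, n = 4) and control 3.92 ± 0.20 (SD, n = 4), a difference of 0.69 (SE 0.26, unadjusted p = 0.0187, limma adjusted p = 0.693). It was 0.96 within wide arrays and -0.02 within narrow ones, and 0.43 without LPS replicate 2 (unadjusted p = 0.0733) or 0.60 without control replicate 4 (unadjusted p = 0.0529). LPS/LPS, at 3.96 ± 0.30 (SD, n = 5), differed from LPS by -0.65 (SE 0.25, unadjusted p = 0.0187, limma adjusted p = 0.47), or by -0.39 without LPS replicate 2 (unadjusted p = 0.0845) and -0.52 without LPS/LPS replicate 3 (unadjusted p = 0.052). Slc25a14 averaged 3.02 in LPS/LPS, 3.20 in LPS and 3.09 in control, and Slc25a27 averaged 3.96 in LPS/LPS, 3.94 in LPS and 3.83 in control.

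The ATP-Mg/phosphate carriers adjust the adenine nucleotide pool of the matrix, and most are gated by calcium. Slc25a23 read 4.24, 4.01, 3.79, 3.74 and 4.00 on the LPS/LPS arrays, 4.42, 3.96, 4.68 and 4.24 on the LPS arrays, and 3.62, 4.12, 3.99 and 3.68 on the control arrays. LPS replicates 1, 3 and 4 lay at or above the highest array of the other groups, and replicate 2 lay among them. LPS averaged 4.32 ± 0.30 (SD, n = 4) and control 3.86 ± 0.24 (SD, n = 4), a difference of 0.47 (SE 0.18, unadjusted p = 0.0194, limma adjusted p = 0.693). Without LPS replicate 3 it was 0.35 (unadjusted p = 0.0709), without control replicate 1 it was 0.39 (unadjusted p = 0.0613), and without control replicate 4 it was 0.41 (unadjusted p = 0.0553). LPS/LPS differed from LPS by -0.37 (SE 0.17, unadjusted p = 0.0466, limma adjusted p = 0.571), or by -0.25 without LPS replicate 3 (unadjusted p = 0.167), and p was under 0.05 in 2 of the 9 fits that left out 1 array of these groups. Slc25a25 read 4.00, 4.12, 3.47, 4.07 and 4.07 in LPS/LPS, 4.05, 4.21, 3.77 and 3.93 in LPS, and 4.08, 3.98, 3.73 and 3.57 in control. These overlapped throughout, and the differences were 0.10 for LPS/LPS against control, 0.15 for LPS against control and -0.04 for LPS/LPS against LPS. Slc25a24 averaged 3.70 in LPS/LPS, 3.74 in LPS and 3.77 in control, and the calcium-independent Slc25a41 averaged 3.29 in LPS/LPS, 3.18 in LPS and 2.96 in control.

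Slc25a15 exchanges ornithine and citrulline between the matrix and the cytosol. Its levels were 4.87, 4.21, 4.24, 4.18 and 4.86 on the LPS/LPS arrays, 4.51, 4.92, 4.86 and 5.48 on the LPS arrays, and 4.76, 4.71, 4.68 and 4.71 on the control arrays. The narrow LPS/LPS arrays, replicates 2, 3 and 4, lay below all others, and the wide ones did not. LPS/LPS averaged 4.47 ± 0.36 (SD, n = 5) and LPS 4.94 ± 0.40 (SD, n = 4), a difference of -0.47 (SE 0.20, unadjusted p = 0.0354, limma adjusted p = 0.542). It was -0.29 without LPS replicate 4 (unadjusted p = 0.149), and p lay between 0.0564 and 0.0826 without LPS replicate 2 or LPS/LPS replicate 2, 3 or 4. Within wide arrays it was -0.22 and within narrow ones -0.30. Its close paralogue Slc25a2 averaged 3.07 in LPS/LPS, 2.87 in LPS and 3.23 in control.

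Slc25a38, which brings glycine into the matrix for haem synthesis, read 4.71, 4.95, 5.11, 5.29 and 4.97 in LPS/LPS, 4.30, 4.82, 5.15 and 4.94 in LPS, and 4.94, 5.61, 4.93 and 4.94 in control. The groups overlapped, and control replicate 2 was the only array above 5.29. LPS differed from control by -0.30 (unadjusted p = 0.167), and by -0.13 without control replicate 2. Slc25a29, a carrier of basic amino acids, averaged 4.10 in LPS/LPS, 3.92 in LPS and 4.07 in control. Slc25a44, a branched-chain amino acid carrier, averaged 4.21 ± 0.18 in LPS/LPS, 4.18 ± 0.065 in LPS and 3.94 ± 0.20 in control, with a difference of 0.27 for LPS/LPS against control (unadjusted p = 0.0584, limma adjusted p = 0.987).

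Slc25a20 exchanges acylcarnitines for carnitine and so admits long-chain fatty acids to oxidation. It read 4.45, 4.29, 3.86, 4.83 and 3.74 on the LPS/LPS arrays, 4.20, 3.83, 3.98 and 4.53 on the LPS arrays, and 3.77, 4.32, 4.29 and 4.11 on the control arrays. The ranges of the 3 groups overlapped, and LPS/LPS replicate 4 was the highest array. The differences were 0.11 for LPS/LPS against control (95% interval -0.37 to 0.58), 0.01 for LPS against control (-0.49 to 0.51) and 0.10 for LPS/LPS against LPS (-0.38 to 0.57). That for LPS/LPS against control was -0.008 without control replicate 1. Cpt1a, the enzyme upstream of this carrier, had the differences given above in the same arrays.

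Among carriers of nucleotides and cofactors, those linked to coenzyme A gave the lowest p. Slc25a42, which takes coenzyme A into the matrix, read 3.24, 3.76, 3.54, 3.76 and 3.52 in LPS/LPS, 3.45, 3.93, 4.51 and 4.38 in LPS, and 3.76, 3.58, 3.48 and 3.76 in control. LPS replicates 2, 3 and 4, all wide, lay above every array of the other groups, and the narrow LPS array did not. LPS/LPS averaged 3.56 ± 0.21 (SD, n = 5) and LPS 4.07 ± 0.48 (SD, n = 4), a difference of -0.51 (SE 0.20, unadjusted p = 0.0221, limma adjusted p = 0.483). Within wide arrays it was -0.89, and within narrow arrays it turned to 0.23. Without LPS replicate 3 it was -0.36 (unadjusted p = 0.09), without LPS replicate 4 it was -0.40 (unadjusted p = 0.0763) and without LPS/LPS replicate 1 it was -0.42 (unadjusted p = 0.0566). LPS differed from control by 0.42 (unadjusted p = 0.0595), and by 0.63 without LPS replicate 1 (unadjusted p = 0.00343).

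Slc25a16, a carrier tied to coenzyme A from work on its yeast relative, read 3.77, 3.51, 3.79, 3.75 and 3.49 in LPS/LPS, 3.83, 3.81, 4.46 and 4.04 in LPS, and 3.29, 3.99, 3.42 and 3.83 in control. Every LPS/LPS array lay below every LPS array, by a margin of hundredths, and it was the 1 member (2.17%) without overlap in that comparison, against 2.4% of all genes. That difference was -0.37 (SE 0.18, unadjusted p = 0.0528, limma adjusted p = 0.58), or -0.23 without LPS replicate 3 (unadjusted p = 0.201). LPS differed from control by 0.40 (SE 0.19, unadjusted p = 0.0495, limma adjusted p = 0.768), or by 0.26 without LPS replicate 3 (unadjusted p = 0.174). That p also lay over 0.05 without control replicate 1 or 3, LPS replicate 4, or any 1 LPS/LPS array, so it sits on the threshold. Between LPS and control 0 members had groups without overlap, against 3.15% of all genes. The remaining members of this role had no unadjusted p under 0.05. Slc25a17, the peroxisomal cofactor carrier, averaged 3.57 in LPS/LPS, 3.87 in LPS and 3.74 in control. Slc25a26, which imports S-adenosylmethionine, averaged 3.45 in LPS/LPS, 3.34 in LPS and 3.23 in control. Slc25a32, a carrier of folate and FAD, averaged 3.42 in LPS/LPS, 3.17 in LPS and 3.37 in control. The pyrimidine nucleotide carriers Slc25a33 and Slc25a36 averaged 3.54 and 3.43 in LPS/LPS, 3.38 and 3.77 in LPS, and 3.57 and 3.57 in control. Slc25a51, which imports NAD, averaged 2.83 ± 0.11 in LPS/LPS, 3.06 ± 0.29 in LPS and 3.10 ± 0.88 in control.

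**Figure D4:**
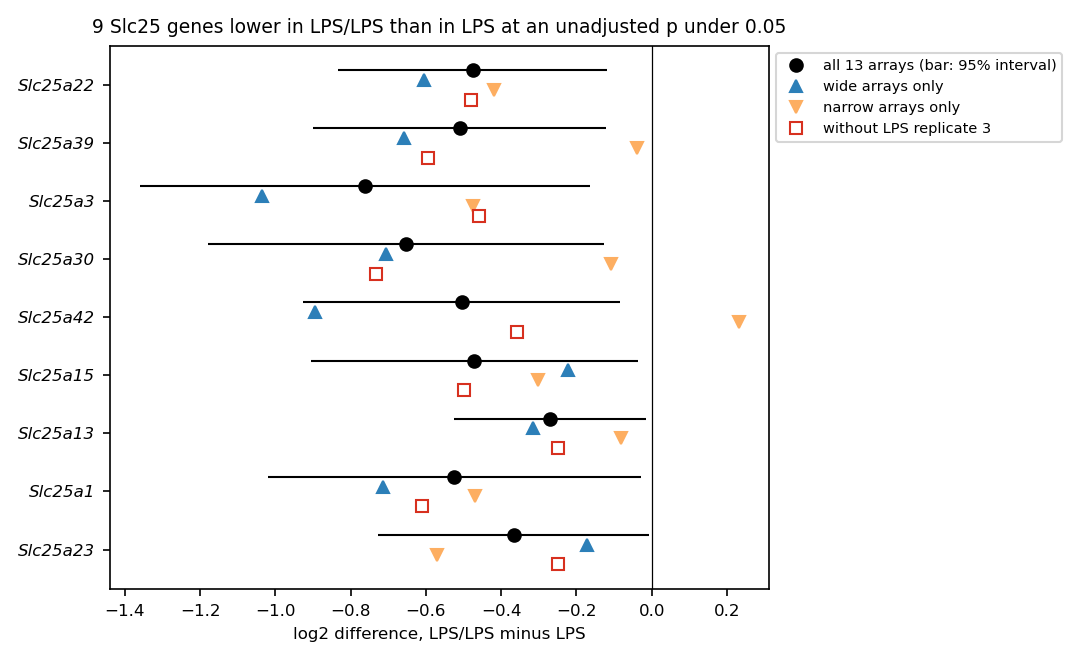
Log2 difference LPS/LPS minus LPS for the 9 Slc25 genes with an unadjusted p under 0.05: all 13 arrays (black, with the 95% interval), wide arrays, narrow arrays, and all arrays but LPS replicate 3. The genes were picked for a negative difference on these arrays. Within narrow arrays, which hold 1 LPS array, Slc25a42 lies above 0.

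The 9 members lower in LPS/LPS than in LPS were picked for that difference on these same arrays, so their shared sign in subsets of them supports nothing, and the values are a description. The sizes did differ between subsets: their median difference was -0.66 among wide arrays and -0.30 among narrow ones, of which 1 is an LPS array. Of these 9, 5 had an unadjusted p under 0.05 without LPS replicate 3, 3 without LPS replicate 4, and 0 in every fit that left out 1 array. Members picked in the comparisons with control carry the same limit. Without LPS replicate 3 and control replicate 1 together, 5 members had an unadjusted p under 0.05 and lower levels in LPS/LPS than in LPS, against 3.45% of all genes lower in that fit. They were Slc25a1, Slc25a21, Slc25a22, Slc25a30 and Slc25a39. In that fit the same 3 members were lower in LPS/LPS than in control, against 2.51% of all genes lower. For LPS against control 3 of the 46 members had an unadjusted p under 0.05 (Slc25a21, Slc25a22 and Slc25a30), against 6.43% of all genes, a share about that of the members.

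The iron carriers, called mitoferrins, deliver iron for haem and iron-sulphur clusters. Slc25a37 read 3.94, 4.08, 3.77, 5.56 and 3.44 in LPS/LPS, 4.08, 4.35, 4.60 and 3.85 in LPS, and 4.10, 4.08, 4.00 and 3.71 in control. LPS/LPS replicate 4 was far above the rest, and otherwise the groups overlapped. With all arrays, LPS/LPS differed from control by 0.18 (95% interval -0.52 to 0.89), or by -0.17 without that replicate. LPS/LPS differed from LPS by -0.06 (95% interval -0.77 to 0.64), or by -0.41 without that replicate (unadjusted p = 0.046). LPS differed from control by 0.25 (95% interval -0.50 to 0.99), or by 0.12 without LPS replicate 3. Slc25a28, its paralogue, averaged 4.77 ± 0.25 in LPS/LPS, 4.74 ± 0.28 in LPS and 4.84 ± 0.35 in control.

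Of the 8 members whose substrate is little known or debated, 0 had an unadjusted p under 0.05 in any comparison. Slc25a48 read 4.94, 5.09, 5.00, 5.18 and 5.03 in LPS/LPS, 5.23, 4.97, 5.29 and 5.53 in LPS, and 4.88, 5.05, 5.04 and 5.32 in control. Its arrays overlapped and ranged over 0.65 in all. The differences were -0.02 for LPS/LPS against control, 0.18 for LPS against control and -0.21 for LPS/LPS against LPS. The lowest p in this role was 0.131, for Slc25a54 in LPS/LPS against control, with means of 3.39 in LPS/LPS and 3.03 in control. The means of Slc25a34, Slc25a35, Slc25a43, Slc25a45, Slc25a47 and Slc25a53 in LPS/LPS were 4.27, 4.54, 3.16, 3.81, 4.82 and 3.75. With all arrays no difference of these 6 exceeded 0.19 in size. For Slc25a47, LPS differed from control by 0.17, or by 0.39 without LPS replicate 3 (unadjusted p = 0.0348) and 0.01 without LPS replicate 4. Slc25a46, an outer membrane member that takes part in shaping mitochondria, averaged 3.47 in LPS/LPS, 3.59 in LPS and 3.52 in control.

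Genes that make, import or accompany the carriers were read for context. Of 14 genes of carrier import, Tomm20, a receptor of the outer membrane, was lower in LPS/LPS than in LPS by -1.13 (unadjusted p = 0.00501, limma adjusted p = 0.354), or by -0.69 without LPS replicate 3, and lower than in control by -0.76 (unadjusted p = 0.0424). Timm10b, a chaperone of the carrier import route, was higher in LPS/LPS than in control by 0.64 (unadjusted p = 0.0273), and the other 12 had no unadjusted p under 0.05 in any comparison. The shares of all genes were 2.62% higher and 2.07% lower in LPS/LPS than in control, and 4.13% higher and 4.49% lower than in LPS. Of 14 other mitochondrial transport proteins, 4 were lower and 0 higher in LPS/LPS than in LPS at an unadjusted p under 0.05. Over all genes 4.49% were lower and 4.13% higher. Sfxn1, the mitochondrial serine carrier, differed by -1.35 (unadjusted p = 0.000966, limma adjusted p = 0.2), and Vdac1, the outer membrane channel that metabolites cross before reaching the carriers, by -1.10 (unadjusted p = 0.00415), followed by Letm1 (-0.38) and Mcu (-0.46). Leaving out LPS replicate 3 gave -1.03 for Sfxn1, -0.89 for Vdac1, -0.26 for Letm1 and -0.375 for Mcu. The median difference of the 14 was -0.20, or -0.07 without that replicate. Against control, LPS/LPS had Sfxn1 (-0.90) and Vdac2 (-0.54) lower and 0 higher, where 2.07% of all genes were lower and 2.62% higher. LPS had Sfxn4 (-0.38) lower and 0 higher than control, where 2.95% of all genes were lower and 3.49% higher. Of 8 regulators of mitochondrial biogenesis, Esrra, an oestrogen-related receptor, was higher in LPS/LPS than in LPS by 0.52 (unadjusted p = 0.000774, limma adjusted p = 0.177) and lower in LPS than in control by -0.40 (unadjusted p = 0.00771). Ppargc1b was higher in LPS/LPS than in LPS by 0.30 (unadjusted p = 0.0452), and Ppara was higher in LPS than in control by 0.39 (unadjusted p = 0.019). Beside these, 4.13% of all genes were higher and 4.49% lower in LPS/LPS than in LPS. In LPS against control the shares were 3.49% higher and 2.95% lower. The 4 family members under other symbols, Ucp1, Ucp3, Mtch1 and Mtch2, had no unadjusted p under 0.05. None of these genes passed limma's adjusted threshold.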

How the data were processed

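Gene expression was measured in 13 samples of S1 segments (5 LPS/LPS, 4 LPS, 4 control). Per the labels' protocols, 2 ng of RNA per sample was labelled by the WT Pico method. The authors deposited log2 values for 41345 probe sets, and the submitters' processing notes name RMA and Partek 6.6. No background step, between-array normalization or genome build is given in the sources used here, and values of dim genes are compressed by any background signal left in them. The number of arrays limits the precision.

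In the platform annotation 23521 probe sets had 1 gene symbol, and 1814 with several and 16010 with none were left out. For 1082 genes with several probe sets, that with the highest mean was used. All 46 members matched a RefSeq gene identifier, with 0 symbols changed, and 1 probe set shared by Rangrf and Slc25a35 was not used. Probe sets of close paralogues, such as Slc25a4 and Slc25a5, can take signal from each other. One limma fit (lmFit and eBayes, limma 3.58.1, R 4.3.3) without covariates gave the 3 comparisons. It was tested on simulated data of independent normal noise, with the same spread of a gene on all arrays. Such data lack the repeated values and outlying arrays seen here, so the test does not cover them. Values on every array are given for the 5 members with the highest mean, those with an unadjusted p under 0.05 (at most the 8 lowest p per comparison), and Slc25a3, Slc25a4, Slc25a5, Slc25a10, Slc25a13, Slc25a20, Slc25a25 and Slc25a37. The ninth by p, Slc25a23, is given through another comparison. List genes are named by at most the 4 lowest p. Members, lists, the background reference, the split by array spread and the motifs were chosen with earlier results of these data known.

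Same-numbered samples deviated together in no consistent way (correlations of -0.351 to 0.215), so the numbers were not taken as pairs. Alternatives tried were other scalings, moderation, array weights, blocks, probe set rules, a filter on dim genes, subsets of arrays and leaving out each array.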

Additional observations from a re-analysis of the deposited data

Results flagged for a closer look

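In 57 groups of 4 or 5 arrays of the members with values on every array, 4 held a highest or lowest array far from the nearest other one. Chance alone flags about 1 in 20 groups. Slc25a38 read 5.61 on control replicate 2, against 4.94 on the next array of that group, a gap of 0.983 of the group's range. Slc25a30 read 3.42 on LPS/LPS replicate 3, against 4.03 on the next (0.837 of the range). Slc25a13 read 3.11 on LPS replicate 1, against 3.36 on the next (0.832 of the range). Slc25a25 read 3.47 on LPS/LPS replicate 3, against 4.00 on the next (0.828 of the range).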

How the results depend on the processing

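In every alternative run, 0 members passed the adjusted threshold in any comparison, and the family medians kept within 1 SD of their main values except among the 6 members above the background reference, where they were -0.02 for LPS against control, -0.185 for LPS/LPS against control and -0.358 for LPS/LPS against LPS. Leaving out 1 replicate in turn gave medians of 0.0563 to 0.11 for LPS against control, -0.0196 to 0.0438 for LPS/LPS against control and -0.0759 to -0.0352 for LPS/LPS against LPS. Members with an unadjusted p under 0.05 then numbered 3 to 6, 2 to 5 and 3 to 10 in these comparisons. For LPS against control they numbered 3 with array weights, 3 without the 2 arrays with the highest Umod (chosen after seeing the data) and 0 above the background reference, against 5. For LPS/LPS against control they numbered 6 in narrow arrays, against 3. For LPS/LPS against LPS they numbered 5 in wide arrays, 4 in narrow arrays, 3 above the reference and 5 without the high-Umod arrays, against 9. Narrow arrays hold 1 LPS array, which is assumed to vary like the other groups. With the replicate number as a block these counts were 4, 4 and 7.

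Of all genes, 0 were called for LPS against control, but 30 with array weights, 7 with trend and robust moderation, 7 after quantile normalization, 3 with the replicate block, 3 above the reference, 1 in narrow arrays and 1 without the high-Umod arrays. For LPS/LPS against control 2 were called, but 4 after quantile normalization, 4 with the spread class as a block, 1 with median centring, and 0 with only the 2 groups, without moderation, in wide or narrow arrays, with the replicate block, over all probe sets or without the high-Umod arrays. For LPS/LPS against LPS 14 were called, but 41 with array weights, 7 over all probe sets, 5 without the high-Umod arrays, 4 with the replicate block, 3 in narrow arrays, 2 with only the 2 groups, and 0 without moderation or in wide arrays. Leaving out 1 replicate gave 0 to 24, 0 to 3 and 5 to 96 genes, with 24 and 96 without LPS replicate 1. In narrow arrays Slc25a30 turned to -0.0232 for LPS against control and Slc25a42 to 0.231 for LPS/LPS against LPS. The cause of these shifts was not tested.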

Other observations

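Many members had the same log2 value to all deposited digits on several arrays. This held on at least 2 arrays for 25 of the 46 members (54.3%), against 50.6% of all genes, and on at least 3 arrays for 16 (34.8%), against 29.2%. Slc25a46, for example, had an SD of 0.00194 over the 4 control arrays. Among members with an unadjusted p under 0.05, 1 value was shared by 4 arrays for Slc25a21. For Slc25a22, Slc25a30 and Slc25a42 it was shared by 3 arrays each. Such repeats enter the spread of a member, and their origin was not tested.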
